A study of Mus musculus with 188 samples.

Results

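The Dppa2 and Dppa4 replication domain was examined as the 50 kb bins of mouse chromosome 16 within chr16:47500001-49550000 of mm10, chosen by position. This window held 41 of the 52685 bins of the deposited tables, and 39 of them were used because they had a replication state in every cell and, in each line, a smoothed score in 50% of cells or more. It was set against 3 Mb on each side, a proximal flank of 60 bins (58 used) and a distal flank of 60 bins (58 used), and against all 45112 used autosomal bins. Proximal means toward the centromere and distal away from it.

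The study measured DNA copy number in single S-phase nuclei of mouse embryonic stem cells (mESCs), asking how much replication timing varies between cells and between homologs. H129-2 is a haploid mESC line of the 129 strain, and F121-9 is a diploid hybrid with a 129 and a Castaneus chromosome set, whose reads can be parsed by homolog at sequence variants. Both lines were grown without feeders in N2B27 medium with 2i and LIF, which holds mESCs in the naive state, and nuclei were sorted by DNA content after DAPI staining, with no further treatment. The cells with matched values were 75 haploid and 63 diploid nuclei sorted from S phase. Cells are named by plate well and the labels give no separate cultures, so a line counts here as 1 sample, each ± is the spread over its cells (SD), and no p-values are given.

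Dppa2 and Dppa4 are neighboring paralogs that encode nuclear proteins with a SAP domain. They are transcribed in pluripotent cells and the germ line, and their products act together as activators of genes of zygotic genome activation. In mammalian cells, large domains replicate at set times of S phase, early ones mostly in active and late ones mostly in inactive chromatin. The Dppa2 and Dppa4 locus is a known example of a domain that is early in mESCs and becomes late on neural differentiation. Differentiated cells were not analysed here.

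S-phase progression of a cell, or progress, was taken as its share of used autosomal bins in the replicated state. It was 61.1% ± 16.9 (SD, n = 75) in haploid cells, from 24.6% to 88.6%, and 54.1% ± 9.56 (SD, n = 63) in diploid cells, from 18.2% to 79.1%. Mid-S cells, with 40% to 60% of bins replicated, numbered 25 haploid and 45 diploid. The depth of each cell is unknown from these values. Haploid progress differed between plate rows, without a steady trend. Its median was 30.6% in row A, 55.3% to 66.6% in rows B to F and 83.9% in row G. Row G also held the haploid cell of lowest progress, at 24.6%. The Dppa4 bin was replicated in 6 of 11 cells of row A and 6 of 8 of row G. The part of the row in these counts was not tested. The scores of 3 pairs of diploid cells correlated at 0.900 to 0.913 across bins, while the next highest pair reached 0.866. The window against its flanks and the homolog differences were also taken without 1 cell of each pair. Ranks, borders, midpoints, line differences and gene similarity were not.

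The window was not a uniform domain. The smoothed score rose from late-replicating DNA on the proximal side to a peak distal to Dppa2 and Dppa4, and then fell to a distal shoulder of intermediate timing. Each bin was placed in the replication schedule by the percentile of its mean score over all 138 cells among used autosomal bins, with 100 as the earliest. The first bin of the window had a schedule rank of 17.5, the bin with the start of Dppa4 59.8, the bin with the start of Dppa2 63, and the highest bin, chr16:48550001-48600000, 71.1. The last bin of the window ranked 40.3. The highest bin lies within Morc1, which encodes an ATPase that silences transposons in the male germ line, and its center was 291 kb from the start of Dppa4. Both Dppa genes therefore stood on the proximal slope of the peak.

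Borders were placed where the schedule rank first fell below 50 on each side of Dppa4. This divided the window into a proximal part of 14 bins (chr16:47500001-48200000), a central part of 14 bins, or 700 kb (chr16:48200001-48900000), and a distal part of 13 bins (chr16:48900001-49550000). The median rank was 31.1 in the proximal part, 63.2 in the central part and 40.9 in the distal part. The proximal flank had a median rank of 42.8 and the distal flank 21.5. The central part was thus the earliest of these 5 segments, although it was only moderately early among autosomal bins. Since these parts were cut by the same mean score, the order of their ranks follows from the cut.

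**Figure D1:**
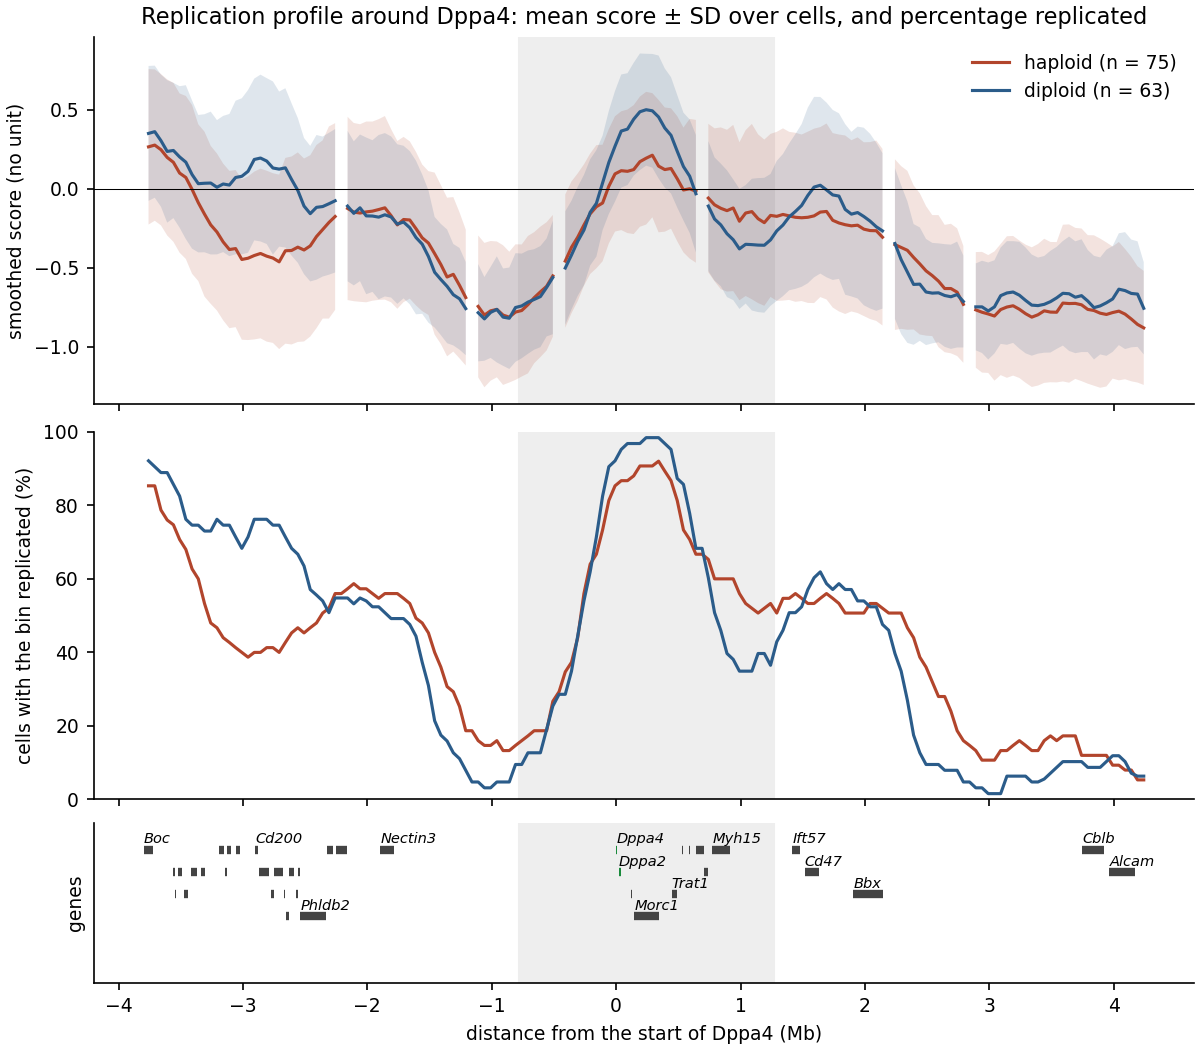
Mean smoothed score ± SD over cells (top), percentage of cells with the bin replicated (middle) and protein-coding genes (bottom), against distance from the start of Dppa4 in Mb, for 75 haploid and 63 diploid cells. The gray band is the window, gaps are bins not used, and the peak lies distal to Dppa4, between a late valley on the proximal side and a shoulder on the distal side.

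Protein-coding genes were unevenly spread over these segments. The proximal part held 0 gene starts, the central part 8, or 11.4 per Mb, and the distal part 3, or 4.62 per Mb, beside 8.58 per Mb over used autosomal bins. Median GC content was 38.2% in the proximal part, 40.8% in the central part and 39.4% in the distal part, against 41.4% over used autosomal bins. By these borders the central part held more gene starts per Mb than the autosomal average, while its median GC was not higher. The density rests on 8 starts and on where the borders are drawn. Borders from the profile of haploid cells alone end at 48800000, before the starts of Retnlb, Retnla and Retnlg. The Dppa4 bin had the highest GC content of the window, 43.9%, at the 69.3 percentile of autosomal bins.

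Dppa4 (ENSMUSG00000058550, chr16:48283733-48294237, plus strand) starts in the bin chr16:48250001-48300000. Its smoothed score, which is centered and scaled within each cell and has no unit, ran over haploid cells from -0.941 through a median of 0.112 to 0.799. Over diploid cells the lowest, median and highest scores were -0.337, 0.260 and 1.60. The ranges of the lines overlapped over most of their length. The mean score was 0.0928 ± 0.365 (SD, n = 75) in haploid and 0.268 ± 0.350 (SD, n = 63) in diploid cells, and in mid-S cells, which are closer in progress, 0.282 ± 0.271 (SD, n = 25) and 0.256 ± 0.324 (SD, n = 45).

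By binarized state, the Dppa4 bin was replicated in 64 of 75 haploid cells, or 85.3% (95% exact binomial interval 75.3 to 92.4), and in 58 of 63 diploid cells, or 92.1% (82.4 to 97.4). In mid-S cells these shares were 96.0% and 93.3%. Intervals here cover counting error only.

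Dppa2 (ENSMUSG00000072419, chr16:48303908-48319723, plus strand) starts in the next bin. Haploid scores ran from -0.941 through a median of 0.168 to 1.10, and diploid scores from -0.419 through 0.345 to 1.62. The Dppa2 bin was replicated in 65 haploid cells (86.7%) and 60 diploid cells (95.2%), and in mid-S cells in 96.0% and 97.8%. No cell had Dppa4 replicated without Dppa2, 3 cells had Dppa2 replicated without Dppa4, and in all others both bins had the same state.

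The other genes of the window followed their distance from the peak. Morc1 and the gene model Gm5485 start in the same bin, at a schedule rank of 65.5, whose share of replicated cells was 88% in the haploid and 96.8% in the diploid line. Trat1, which encodes an adaptor of the T cell receptor, starts on the distal slope at rank 58.1, with 81.3% and 87.3%. Retnlb and Retnla, which encode secreted resistin-like proteins, start in the bin of rank 53.9, with 73.3% and 85.7%, and Retnlg in the last bin of the central part at rank 52.7, with 70.7% and 77.8%. The bin of Dzip3, an RNA-binding ubiquitin ligase, and Cip2a, an inhibitor of the phosphatase PP2A, had no smoothed score. By state it was replicated in 66.7% of the haploid and 68.3% of the diploid cells. Myh15, a myosin heavy chain gene, ranked 44.6, with 60% and 50.8%. From Trat1 to Myh15 the share of replicated cells thus fell in both lines with each bin named.

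Beyond the window, Nectin3, a cell adhesion gene, was the nearest gene on the proximal side and ranked 43.2, while the nearest on the distal side, Ift57 of intraflagellar transport, also ranked 43.2. The Nectin3 bin was replicated in 56% of the haploid and 49.2% of the diploid cells, and that of Ift57 in 54.7% and 50.8%. The nearest genes outside the window were therefore at intermediate ranks on both sides, and the gene-free proximal part was later than either.

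In 51 of 70 mid-S cells the replicated run around Dppa4 began and ended inside the window. The domain was also set against its surroundings within each cell. The central part was cut by the mean score of these same cells, so that its excess over the flanks largely follows from the cut and is given as a description. The percentage of bins replicated in the central part exceeded that in the proximal flank by 40.1 points ± 32.6 (SD, n = 138), with 120 cells higher and 9 lower, and that in the distal flank by 62 points ± 31.5, with 128 higher and 5 lower. In mid-S cells it was higher than the distal flank in 25 of 25 haploid and 45 of 45 diploid cells, and higher than the proximal flank in 25 of 25 and 44 of 45.

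The whole window differed less from its flanks. It exceeded the proximal flank by 10.6 points ± 30.8 (SD, n = 138), higher in 72 cells and lower in 57, which is well within the spread over cells. The lines went opposite ways in these counts, with 44 haploid cells higher and 22 lower, and 28 diploid cells higher and 35 lower. It exceeded the distal flank by 32.5 points ± 26.7, higher in 115 cells and lower in 18. With flanks of 1 Mb these differences became 34.1 and 6.54 points, since the nearest proximal DNA is the late valley and the nearest distal DNA is the intermediate shoulder. Without 1 cell of each similar pair they were 11.1 and 32.7 points.

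**Figure D2:**
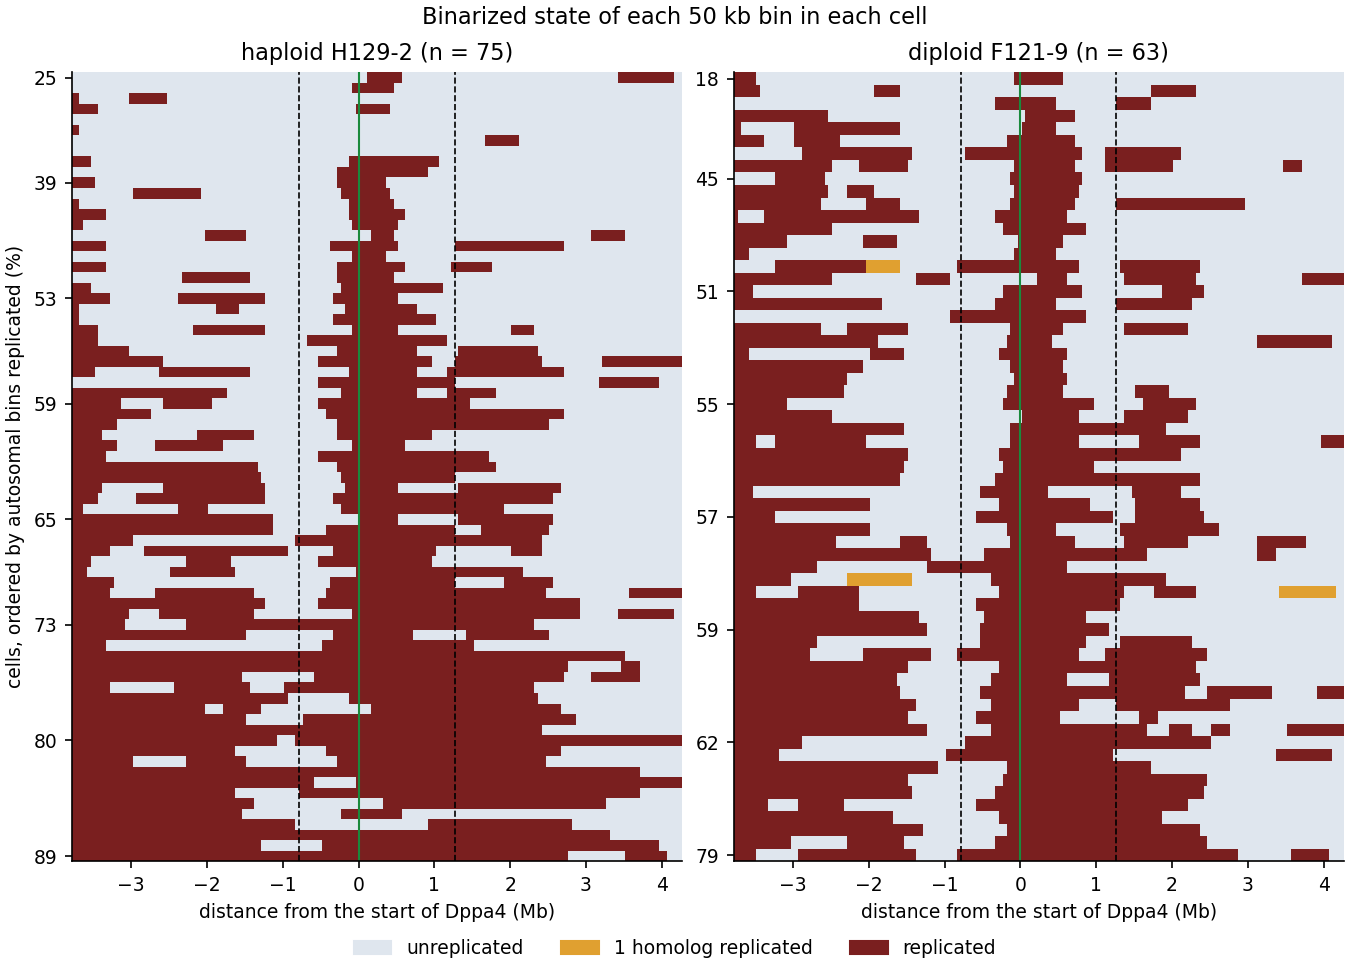
Binarized state of each 50 kb bin in each cell, against distance from the start of Dppa4 in Mb, with cells ordered from early (top) to late S phase and labelled with the percentage of autosomal bins replicated. Dashed lines bound the window and the green line marks the start of Dppa4. The replicated block at Dppa4 is absent from 8 of the 15 cells under 40% progress, is narrow in the 7 others and widens downward, and the 3 segments with 1 homolog replicated lie outside the window.

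Along S phase, the central part filled first in both lines. In the 8 cells with under 30% of autosomal bins replicated, the Dppa4 bin was replicated in 3, and in the 7 cells with 30% to 40% in 4. The share was then 14 of 16 cells at 40% to 50%, 52 of 54 at 50% to 60%, and 26 of 27 at 60% to 70%. It was 14 of 15 cells at 70% to 80% and 9 of 11 from 80% upward. The Dppa4 bin therefore passed from a minority of cells to most of them by mid-S, and the last interval held haploid cells only. The earliest cell with Dppa4 replicated was a diploid cell at 18.2%, which was also the earliest of all 138. Under 30% progress, states and scores at the Dppa4 bin did not fully match. The cells at 20.4% and 24.6%, read as unreplicated, scored 0.260 and 0.358, above the replicated cell at 27.4% with 0.0797. The others without it replicated scored -0.423 or lower, and the others with it 0.621 or higher. Scores are relative within a cell, so they do not settle these states.

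The parts followed at different times. At 40% to 50% progress, the central part was replicated to 88.4% ± 16.9 (SD over 16 cells), the proximal part to 16.1% ± 24.4 and the distal part to 13.5% ± 18.1. At 60% to 70% the distal part had reached 82.6% ± 34.8 (27 cells), while the proximal part was at 43.1% ± 27.9. The proximal flank was then at 59.5% ± 26 and the distal flank at 31.7% ± 17.8. The distal part thus filled mostly between these intervals. The proximal part was at 68.6% ± 39.6 at 70% to 80% (15 cells) and at 53.2% ± 40.8 in the 11 latest cells. The central part also went from 97.6% to 84.4% between these last 2 intervals, and the distal part from 94.4% to 86.7%. The last interval is therefore not read as a later stage of filling.

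Logistic curves of replicated share against progress put the same parts on a scale of S phase, and the order of the central part before the other parts of the window again follows from the cut. The curve passed 50% at a progress of 24.4% in the central part, 56.9% in the distal part, 58.9% in the proximal flank, 69% in the proximal part and 75.6% in the distal flank. The distal part and the proximal flank had no fixed order: the midpoints were 57.3% and 64.3% in haploid cells and 56.3% and 52.7% in diploid cells. For the single bins of Dppa4 and Dppa2 it passed 50% at 20.9% and 19.9%, close to the lower end of the sampled cells, where few cells carry the fit. With a running mean of 15 cells in place of the curve, these midpoints were 34.4% and 33.2%. With a smoothed score above 0 taken as replicated, neither curve passed 50% within the sampled progress. The midpoints of Dppa4 and Dppa2 therefore rest on the binarized states and are coarse. The rise from 25% to 75% took 16 points of progress in the distal part, 29.6 in the central part and 38 in the proximal part. In the central part the fitted rise begins below the lowest sampled progress, so its width is partly extrapolated.

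**Figure D3:**
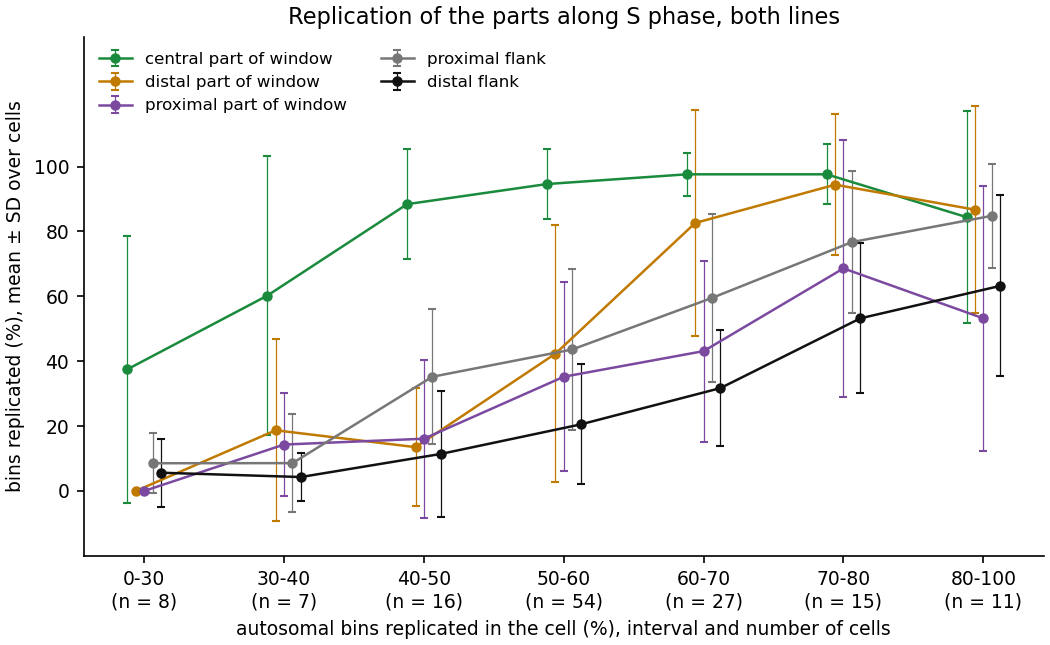
Percentage of bins replicated (mean ± SD over cells) in the parts of the window and both flanks, against the progress interval of the cells, with both lines together and the number of cells under each interval. The central part leads in each interval up to 70 to 80%, and the distal part rises from 13.5% at 40 to 50% progress to 82.6% at 60 to 70%.

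The replicated run that contained Dppa4 could be followed from cell to cell. In the 7 cells under 40% progress that had one, its median length was 650 kb, from 450 to 1200 kb, and all 7 runs lay inside the window. At 40% to 50% the median was 850 kb, with 14 of 14 runs inside the window. It was 1200 kb at 50% to 60%, with 37 of 52 inside, 2175 kb at 60% to 70%, with 8 of 26 inside, and 3700 kb from 70% upward, with 2 of 23 inside. Runs were measured within the window and its flanks, so the 8 runs that reached an edge, all from 70% upward, are lower bounds. The runs were asymmetric around Dppa4: in mid-S cells, the median start lay at -284 kb from the start of Dppa4, on its proximal side, and the median end at 766 kb on its distal side.

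The end of the run moved farther than its start. The median start was -134 kb from Dppa4 at 40% to 50% progress, -284 kb at 50% to 60% and -359 kb at 60% to 70%, while the median end was 666, 791 and 1840 kb. By 60% to 70%, the run had in most cells joined the distal shoulder and the DNA around Ift57 and Cd47, and in most cells the proximal valley still separated it from Nectin3. These edges are placed on profiles that were median smoothed over a span about as long as the central part, so that single edges are coarse.

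Within the central part, the Dppa4 bin was not always the first to be replicated. The highest bin, in Morc1, was replicated without Dppa4 in 8 cells, 4 of each line, and the reverse was seen in 0 cells. That bin was picked by the mean score of these same cells, so the direction of the count largely follows from the choice. The central part was complete in 95 cells, wholly unreplicated in 7 and partly replicated in 36. In 3 cells, all haploid, Dppa4 was replicated while no bin of either flank was.

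**Figure D4:**
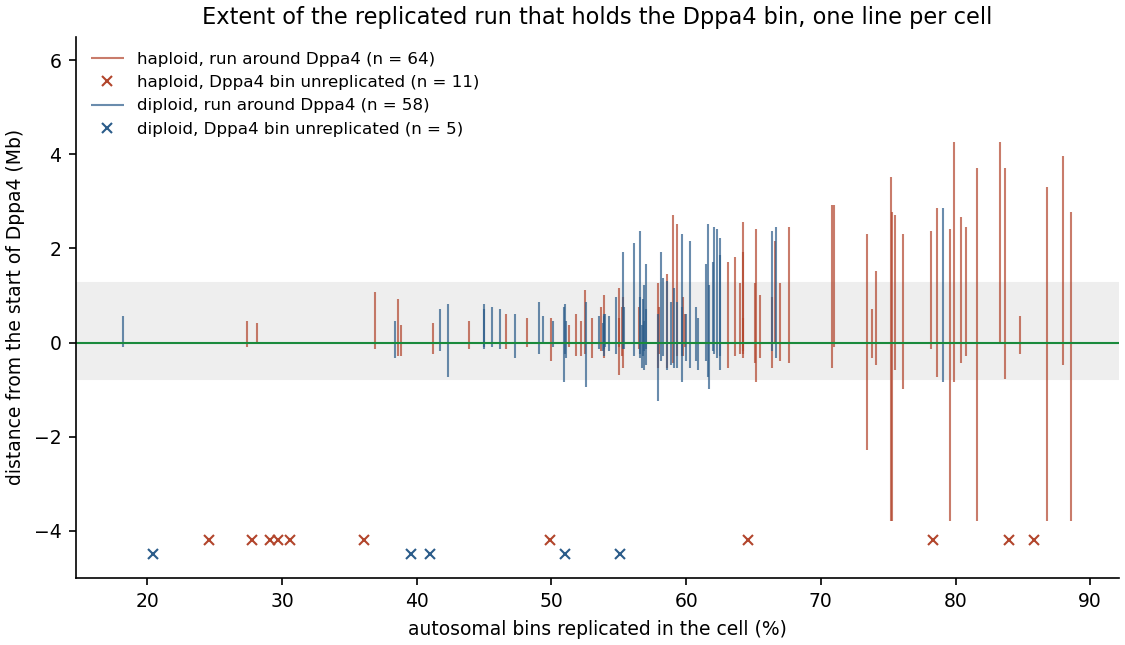
Extent of the replicated run that holds the Dppa4 bin, 1 vertical line for each of 64 haploid and 58 diploid cells, in Mb from the start of Dppa4, against the percentage of autosomal bins replicated. The gray band is the window, lines are cut at the outer edges of the flanks, and crosses at the bottom mark the 11 haploid and 5 diploid cells without Dppa4 replicated. Runs stay in the band up to 50% progress and then lengthen mostly on the distal side.

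Changes of state in single cells were set against the borders of the mean profile. Those borders were cut from the mean score of these same cells, so that some closeness follows from the cut. Other positions were not measured for reference. For each of the 70 mid-S cells, the change of binarized state nearest to each border was located. At the proximal border its median offset was -150 kb, with an interquartile range from -300 to -50.0 kb, and 49 cells had it within 250 kb. At the distal border the median offset was 50.0 kb, from -138 to 250 kb, and 48 cells had it within 250 kb. The SD of the offsets was 247 kb at the proximal and 420 kb at the distal border. The nearest change could be of either direction, and offsets reached 700 kb at the proximal and -1050 kb at the distal border. Some can therefore be other edges, and these SDs do not measure how far each border moved. For the run around Dppa4, in 66 mid-S cells, the interquartile range spanned 288 kb at the start and 425 kb at the end. The rank at which a border is drawn mattered as well: at rank 40 the central part ran from 48000001 to 49250000, or 1250 kb, and in the profile of haploid cells alone it was 600 kb, against 800 kb in diploid cells alone.

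Of 16 cells without Dppa4 replicated, 8 had under 40% of autosomal bins replicated and 4 were mid-S cells. The other 4 were haploid cells past mid-S, at 64.6%, 78.3%, 84% and 85.8% progress. Their smoothed scores at the Dppa4 bin were -0.179, -0.582, -0.696 and -0.408. In the 35 haploid cells past mid-S that had Dppa4 replicated, the score ran from -0.428 through a median of 0.0737 to 0.799. The cells at 78.3% and 84% scored below all 35, whereas 7 of the 35 scored below the cell at 64.6% and 1 below the cell at 85.8%. Scores at the Dppa4 bin thus do not set the last 2 named apart. At the Dppa2 bin the cell at 85.8% scored -0.659, below all 35, of which the lowest was -0.428. The cell at 64.6% scored -0.103 there. The first 3 of these cells had 71.4%, 64.3% and 42.9% of the central part replicated, and the cell at 85.8% had 0%, beside 98.3% of the proximal flank and 51.7% of the distal flank. In that cell the whole central part, with Dppa4, Dppa2 and Morc1, was read as unreplicated late in S phase. As a reference within the same cells, the bins of 11 stem cell genes that ranked earlier than Dppa4 were all replicated in 3 of the 4. In the cell at 84%, 2 of them, Dppa3 and Nanog, were unreplicated. Those genes were taken for an earlier mean score over these same cells, and the 4 cells for lacking Dppa4. The contrast thus largely follows from the choice and is given as a description. Per the study's methods, the binary fit of some very early and very late cells rested on the skew of the data, and its part in these 4 states was not tested.

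No bin of the window reached the limit used for a difference between the haploid and diploid lines. The lines were compared in intervals of 5 points of progress that held at least 3 cells of each line. This left 30 haploid and 52 diploid cells in 4 intervals. The haploid minus diploid score was 0.0228 at the Dppa4 bin (matched means 0.241 and 0.218, SD over cells 0.273) and -0.0441 at the Dppa2 bin (0.277 and 0.321, SD 0.289). Both were far within the spread over cells. Over the 39 used bins the difference ran from -0.116 to 0.139, and 0 bins reached 0.5 in either direction, where 1.85% of autosomal bins did. At that share 39 bins would hold few such bins or none, so nothing about the window is read from this count. The central part was slightly higher in diploid cells in 9 of 14 bins, and the distal part slightly higher in haploid cells in 12 of 12, by a median of 0.0867, also within the spread. Over used autosomal bins, 25081 of 45112 were higher in haploid and 20031 in diploid cells. Neighboring bins are smoothed together and are not separate outcomes, so nothing about the parts is read from these counts. A difference of ploidy cannot be told apart from one of strain, culture or sorting gate here.

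The nearest line difference lay in the proximal flank. There 12 neighboring bins, chr16:45100001-45700000, scored lower in haploid cells, with haploid minus diploid differences from -0.785 to -0.602, a mean of -0.698 and an SD over cells of 0.470. In mid-S cells these bins were on average replicated in 16% of the haploid and 75.9% of the diploid line. They include Cd200, which encodes a ligand that restrains myeloid cells, Btla, an inhibitory receptor of lymphocytes, and Atg3, an enzyme of autophagy. Diploid cells were higher by at least 0.5 in 1.08% of autosomal bins and haploid cells in 0.767%. The stretch is given for its position, and no contrast with the window is read from these counts. The window exceeded its proximal flank by more in mid-S haploid cells, 25.9 points ± 28.8 (SD, n = 25), than in mid-S diploid cells, 4.24 ± 27.4 (SD, n = 45). The flank was at 25.5% in mid-S haploid and 50.7% in mid-S diploid cells, while the window was at 51.4% and 54.9%. Of the 58 used bins of the flank, 49 had a higher matched score in diploid and 9 in haploid cells. Over used autosomal bins, 20031 of 45112 were higher in diploid and 25081 in haploid cells. Neighboring bins are smoothed together and are not separate outcomes. The 12 bins were only part of the 49.

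**Figure D5:**
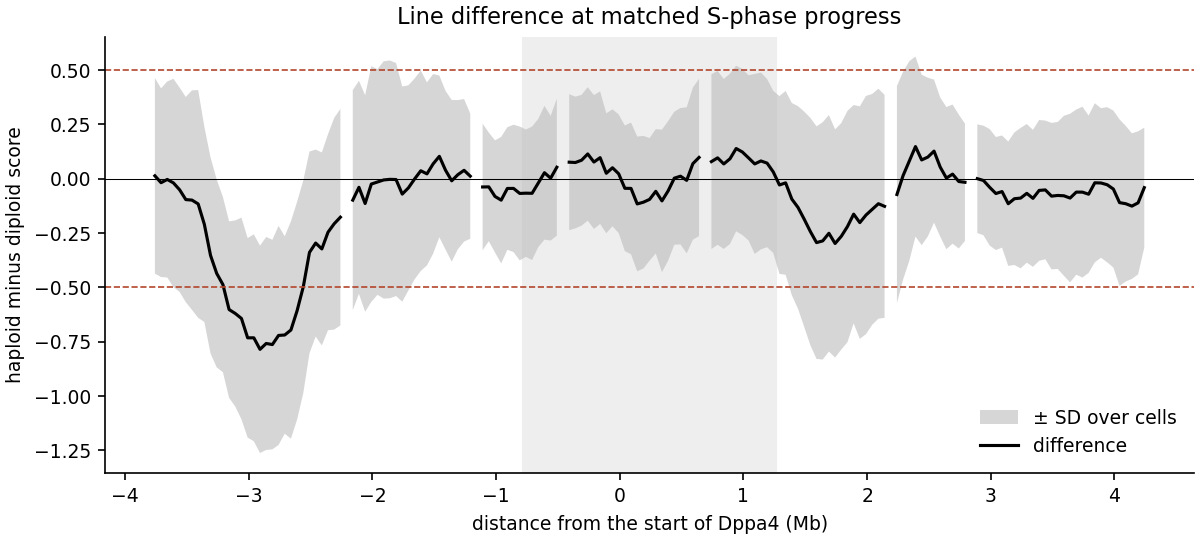
Haploid minus diploid smoothed score at matched S-phase progress (line) with the SD over cells (gray), against distance from the start of Dppa4 in Mb, for 30 haploid and 52 diploid cells. Dashed lines mark a difference of 0.5 either way. The window, in the darker band, stays between -0.116 and 0.139, and the trough near Cd200 in the proximal flank passes -0.5.

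The homologs had the same state throughout the window. In 0 of 63 diploid cells did any of its bins carry only 1 replicated homolog, which allows a share of cells of up to 4.76%. Among used autosomal bins, 40.4% had at least 1 such cell, 27.5% with the 129 homolog replicated and 18.3% with the Castaneus homolog, and on chromosome 16 the share was 25.1%. Neighboring bins are segmented together, so the bins of the window are few separate chances to see asynchrony. In the deposited states, moreover, a segment has the same state on both homologs unless the parsed reads passed the authors' limit.

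The flanks held 3 asynchronous segments, all in mid-S cells with both homologs of Dppa4 replicated. In 1 cell at 50.9% progress the 129 homolog alone was replicated over chr16:46250001-46700000, which contains Nectin3. In a cell at 58.1% the 129 homolog alone was replicated over chr16:46000001-46850000, around the same gene. In a cell at 58.3% the Castaneus homolog alone was replicated over chr16:51700001-52450000, which contains Cblb and most of Alcam. Over all used autosomal bins and cells, 0.870% of states were asynchronous, against 0.688% in the proximal and 0.397% in the distal flank.

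Dppa4 was then placed among other genes of the early embryo and of stem cells, a list of 20 genes of which 14 start in a used bin. Of these 14, 11 ranked earlier than Dppa4 and 3 later, and the median rank was 81.5, against 50.0 over autosomal bins. The earliest were Sox2 at rank 98.5 and Esrrb at 98.3, both core transcription factors of mESCs, followed by Utf1 at 96.9, a chromatin factor, and Lin28a at 96.2, an RNA-binding protein. Pou5f1, which encodes Oct4, ranked 83.5, Klf4 79.5 and Nanog 70.9. Most pluripotency genes of the list thus lay in earlier DNA than Dppa4.

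The other genes with the Dppa name differed among themselves. Dppa5a ranked 78.8 and Dppa3, also called Stella, 74.9, whereas Dppa1 ranked 39.1 and was replicated in 56% of the haploid and 42.9% of the diploid cells. Zfp42, which encodes Rex1, ranked 53.4, and Zfp352, a gene of the cleavage-stage embryo, 0.464, with 2.67% of the haploid and 7.14% of the diploid cells replicated. The haploid minus diploid difference reached 0.5 in 0 of the 14 bins, and with 1.85% of autosomal bins doing so, nothing about these genes is read from that count. The bins of Zscan4c, Zscan4d, Zscan4f, Tcstv1, Tcstv3 and Duxf3, which lie in repeated gene clusters, were not used.

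The state of the Dppa4 bin differed from that of the Dppa2 bin in 3 of 138 cells, or 2.17%. Outside chromosome 16, the genes of 18680 with the most similar states were Myc, with a mean difference of 7.61%, and Nom1, Mnx1, Alg8 and Eif5b, each with 7.97%, where the median gene differed by 14.1%. Their schedule ranks were 95.7, 66.3, 68.8, 76.2 and 78.4, against 59.8 for Dppa4. Likeness of states did not name a stable set of genes: of these 5, 0 remained among the nearest 5 in mid-S cells, 0 by smoothed score, 0 in haploid cells alone and 1 in diploid cells alone.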

How the data were processed

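Single nuclei sorted by DNA content were amplified and sequenced. As the study's methods describe, reads were mapped by the authors to mm10 with Bowtie2, removed duplicates with SAMtools, counted reads in 50 kb windows, divided by G1 and G2 control cells, and centered, scaled and median smoothed each cell. What was deposited as smoothed values is thus a unitless score, relative within a cell. The deposited binarized states are a score of 0 or 1 made by the authors from segmented profiles. In diploid cells both homologs have the same state unless parsed reads showed asynchrony. Smoothing and segmentation tie neighboring bins and blur borders.

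Of 188 labelled cells, 138 S-phase cells had values matched by plate well, and 11 haploid and 33 diploid S-phase cells and 6 G1 cells were not analysed here. A further 24 columns (16 binarized, 8 smoothed) matched no labelled sample. Homolog states of a diploid cell were averaged. Protein-coding genes were placed by their start in a mouse annotation of the same build. Midpoints come from logistic curves, read only within the sampled progress (18.2% to 88.6%). Intervals are exact binomial (95%), and the limit behind a count of 0 is 3 counts. The fits were tested on simulated data. The simulated midpoints were later, and the rises narrower, than those fitted for Dppa4, Dppa2 and the central part. That test therefore does not cover the fits of these. Named genes were all those overlapping the window, the nearest in each flank, the 5 most similar in state and a fixed list of 20; Cd200, Btla, Atg3, Cd47, Cblb and Alcam were named after their values were seen. The window, the list and the limits were chosen with earlier results of these data known. Python 3.11.15, numpy 2.4.6, pandas 2.3.3 and scipy 1.17.1 were used.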

Additional observations from a re-analysis of the deposited data

How the results depend on the processing

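Of 79 alternative values for 19 results, 74 stayed within 1 SD over single cells or near the same count, 5 moved and 0 reversed a called difference. That SD is wide for a mean over many cells, so staying within it is a weak sign of stability. Values that stayed within it but shifted by over 1.5 times include the window minus the proximal flank (10.6 to 34.1 points) and the distal flank (32.5 to 6.54 points) with flanks of 1 Mb, and the proximal border (-83.7 to -284 kb from Dppa4) at rank 40. Where a smoothed score above 0 counted as replicated, the midpoint of the distal part moved from 56.9% to 71.8%, and the curves of Dppa4, Dppa2 and the proximal part did not pass 50% within the sampled progress and gave no value. Of the 5 genes most similar to Dppa4, 0 were shared with the nearest 5 in mid-S cells, 0 by smoothed score, 0 in haploid and 1 in diploid cells alone. No border could be placed at rank 60, since the Dppa4 bin itself ranked 59.8. The borders at rank 60 and the midpoints that gave no value are not among the 79. The Dppa4 rank ran from 55.2 in haploid cells to 69.5 with chromosomes centered. As a share of cells replicated, the haploid minus diploid difference at Dppa4 was -2.95 points (SD 21.7). No paired analysis was possible because plate wells only name cells and pair none across the lines. With no cultures named and unknown depth, differences between cultures cannot be judged.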
